A study of Mus musculus with 20 samples.

Results

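The inter-alpha-trypsin inhibitor family was followed in bulk liver RNA-seq, as 6 genes (Itih1, Itih2, Itih3, Itih4, Itih5 and Ambp) of the 55421 genes in the count table. Itih5 was chosen by its own RNA values, being called in both comparisons of the HIRA guide with the control guide, and the other 5 genes were taken by their family name. All 6 genes passed the filter of at least 10 counts in total. The 20 libraries fell into 4 groups of 5, from C57BL/6 mice, labelled wildtype, that were injected at 6 months of age. Every mouse received the same type of vector, AAV8-Tbg-saCas9, in which the hepatocyte-specific Tbg promoter drives the Cas9 of Staphylococcus aureus and a U6 promoter drives a guide RNA. In HIRA KO mice the guide was directed against Hira, the gene of a histone H3.3 chaperone, and in control mice it was directed against Rosa26, a safe-harbour locus, so the controls carried Cas9 and a cut site too. Livers were taken 3 weeks or 6 months after injection. The mice were labelled female, whereas the study itself speaks of male mice in its text on this time course and of female mice in a legend to the same data. Whole liver was sequenced, so a gene that is higher because more cells express it and a gene that is higher because each cell holds more of its RNA cannot be told apart.

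Inter-alpha-trypsin inhibitor is a plasma protein made by hepatocytes. Its light chain, bikunin, is a Kunitz-type protease inhibitor cut from the Ambp precursor, and a chondroitin sulfate chain on bikunin carries heavy chains encoded by Itih1, Itih2 and Itih3. In the tissues the heavy chains are moved onto hyaluronan, which makes the hyaluronan-rich matrix firmer. Itih4 encodes a related plasma protein of the acute phase response that does not join bikunin, and Itih5 encodes a further heavy chain relative that is known mainly from tissues outside the liver.

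Totals ran from 19916430 to 24079736 counts per library. Hira itself had 128 to 171 counts in 3-week controls, 87 to 127 in 3-week HIRA KO livers, 105 to 157 in 6-month controls and 109 to 136 in 6-month HIRA KO livers. Its log2 fold change was -0.48 ± 0.14 (SE; edgeR adjusted p = 0.197) at 3 weeks and -0.10 ± 0.14 (adjusted p = 0.794) at 6 months, so the transcript level did not pass the test as a check of the guide labels. The study reports, from western blots of its CRISPR mice, that HIRA protein was lost, which the RNA counts do not measure. A single library, labelled HIRA KO 6 months replicate 5, went against the label female, with 9 Xist counts and 2041 counts on Y-linked genes where the other 19 libraries had 6286 to 8436 and 0 to 13. Its Hira level was 6.51 CPM, above the other 4 libraries of its group (4.96 to 5.64 CPM) and above 4 of the 5 controls of that time (4.82 to 7.32 CPM in all). Without it the Hira log2 fold change at 6 months was -0.16 ± 0.14 (adjusted p = 0.614). The library is named by its label throughout, and results that rest on it are given with and without it. Markers of hepatocytes dominated every library, with a summed level of 85300 to 167000 counts-per-million (CPM, scaled to the TMM-normalised library size) over 10 genes.

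The members lie at 3 places in the genome (GRCm38, GENCODE M21), and none of them overlaps another annotated gene. Itih5 (ENSMUSG00000025780.7) spans chromosome 2 from 10153571 to 10256529 on the plus strand, with 14 exon blocks and 7900 bp of exon sequence. Itih2 lies 22.2 kb away on the minus strand (10094593 to 10131396). Itih4 (30886476 to 30902353, plus strand), Itih3 (30908572 to 30923760, minus strand) and Itih1 (30929180 to 30943289, minus strand) form a cluster on chromosome 14, with gaps of 6.22 kb and 5.42 kb. Ambp lies on chromosome 4 (63143275 to 63154799, minus strand).

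Promoter windows from RefSeq (GRCm38.p6), 250 bases before to 50 bases after the annotated start, were found for all 6 members. The windows of 4 members are shown, as a pair of neighbours whose RNA values were unlike (Itih5 and Itih2) and a pair of neighbours whose RNA values resembled each other (Itih3 and Itih4). They lie at chr2:10153293-10153592 (plus strand), chr2:10130634-10130933 (minus), chr14:30923538-30923837 (minus) and chr14:30886226-30886525 (plus), in that order. Each is printed 5′ to 3′ on the strand of the gene, and capitals mark the motif matches described after them.
Itih5: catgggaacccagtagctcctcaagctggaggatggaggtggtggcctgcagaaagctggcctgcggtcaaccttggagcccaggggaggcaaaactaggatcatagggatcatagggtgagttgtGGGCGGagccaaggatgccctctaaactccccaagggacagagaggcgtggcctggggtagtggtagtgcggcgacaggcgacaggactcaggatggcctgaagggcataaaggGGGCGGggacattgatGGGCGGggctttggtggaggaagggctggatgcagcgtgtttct
Itih2: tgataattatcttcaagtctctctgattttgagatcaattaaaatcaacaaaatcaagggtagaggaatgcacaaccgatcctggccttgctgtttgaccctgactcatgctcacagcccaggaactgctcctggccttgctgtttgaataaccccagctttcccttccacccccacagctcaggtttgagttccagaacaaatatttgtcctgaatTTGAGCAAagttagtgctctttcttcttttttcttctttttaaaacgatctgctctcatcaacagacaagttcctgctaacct
Itih3: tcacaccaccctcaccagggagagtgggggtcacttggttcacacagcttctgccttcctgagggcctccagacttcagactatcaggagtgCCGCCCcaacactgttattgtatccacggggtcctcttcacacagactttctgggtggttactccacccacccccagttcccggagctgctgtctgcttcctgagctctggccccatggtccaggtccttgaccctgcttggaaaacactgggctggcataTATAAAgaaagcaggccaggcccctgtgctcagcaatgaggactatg
Itih4: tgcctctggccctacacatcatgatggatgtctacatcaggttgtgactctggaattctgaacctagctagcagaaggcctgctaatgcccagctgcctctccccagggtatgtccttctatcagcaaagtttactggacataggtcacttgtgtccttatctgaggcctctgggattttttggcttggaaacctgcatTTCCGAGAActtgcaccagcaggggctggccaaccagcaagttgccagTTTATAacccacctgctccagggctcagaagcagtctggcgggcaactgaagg

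Motifs were searched by their letters on both strands, and no matches in the 6 windows overlapped. GGGCGG, the core of the GC box that Sp1 factors bind, occurred 3 times in the Itih5 window, at 124 and 10 bases before the start and 7 bases after it. Of all 32851 promoter windows in the table, 35.7% held GGGCGG and 10.7% held it 3 or more times. The Itih3 window held it on the other strand, 158 bases before the start, and the windows of the other 4 members did not hold it. TATAAA (13.6% of all windows) was found in the windows of Itih3 and Itih4. TTCNNNGAA, the letters of a STAT site (8.3%), was found in that of Itih4, and TTGCNNAA, those of a C/EBP site (10.8%), in that of Itih2. GTTAAT (7.1%) was found in the Itih1 window and CCAAT (37.4%) in the Ambp window. CACGTG (7.15%), TTATGNAA (3.38%) and CAAAGTCCA (0.475%) were not among the letters of any of the 6 windows. The Itih5 window had a GC content of 60.7% and 9 CpG pairs, against 42.3% to 57.0% and 2 to 5 in the other members and medians of 52.7% and 7 over all windows.

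Per kilobase of exon, the plasma protein genes stood far above Itih5. In 3-week controls the mean level was 2320 ± 545 CPM per kb (SD, n = 5) for Ambp, 1250 ± 603 for Itih4, 529 ± 239 for Itih3, 421 ± 36.8 for Itih2, 338 ± 34.2 for Itih1 and 1.58 ± 0.285 for Itih5. Ranges of neighbours in this order overlapped, from Ambp and Itih4 down to Itih2 and Itih1, and Itih5 alone stood clear of the next gene. In 6-month controls the order of the means was the same. In HIRA KO livers of both times Itih2 stood above Itih3, at 399 ± 41.1 against 310 ± 32.7 CPM per kb at 3 weeks and 416 ± 43.7 against 345 ± 53.5 at 6 months, with ranges that overlapped at 6 months. The FPKM values that the authors deposited put the members in the same order within each group.

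At 3 weeks Itih5 was about 3 times as abundant in HIRA KO livers as in controls. The control libraries held 228, 253, 203, 345 and 282 Itih5 counts (replicates 1 to 5), and the HIRA KO libraries held 728, 969, 587, 762 and 779. Every HIRA KO library stood above every control library, with 28.4 CPM as the lowest HIRA KO level and 15.6 CPM as the highest control level. Over all genes tested, 1.45% separated in this way with the HIRA KO group higher. The group means were 12.4 ± 2.25 and 35.6 ± 6.31 CPM (SD, n = 5), which is 2.86-fold, or 1.51 ± 0.28 (SE) as a log2 fold change. Since this contrast chose Itih5, these values are a description and no test is given. In that contrast 0.0787% of 22867 genes were called higher, meaning an adjusted p under 0.05 and a log2 fold change above 1.

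At 6 months Itih5 was again higher in HIRA KO livers, in 4 of 5 libraries. The controls held 163, 146, 94, 116 and 159 counts, and the HIRA KO libraries held 747, 566, 521, 588 and 112. Replicates 1 to 4 of the HIRA KO group, at 21.6 to 29.2 CPM, stood above all controls, whose highest level was 7.29 CPM. Replicate 5, at 5.69 CPM, lay inside the control range, and it is the library whose sex-linked counts went against its label. The group means were 6.09 ± 1.36 and 22.2 ± 9.72 CPM, and the log2 fold change was 1.87 ± 0.29 (3.65-fold), again as a description. Without replicate 5 it was 2.11 ± 0.17. Here 0.249% of genes were called higher.

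**Figure D1:**
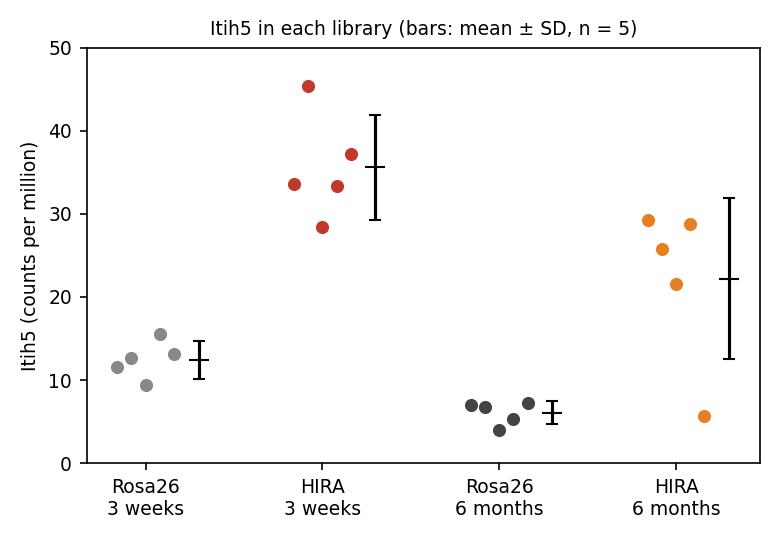
Itih5 in each of the 20 libraries, in counts-per-million on a linear axis, by guide and time, with black bars for the mean ± SD of 5 libraries. The HIRA KO libraries at 3 weeks lie between 28.4 and 45.4, above all controls, and 1 of the 5 HIRA KO libraries at 6 months lies at 5.69, among the controls.

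Itih5 also lay lower in 6-month than in 3-week controls, a comparison that the choice of the gene did not use, although it shares its libraries with the guide contrasts. The 5 controls at 6 months, at 4.04 to 7.29 CPM, all lay below the 5 controls at 3 weeks, at 9.38 to 15.6 CPM, and 1.81% of genes tested separated in this way with the later group lower. The log2 fold change was -1.03 ± 0.29, and the adjusted p of 0.116 did not pass. Without the library labelled HIRA KO 6 months replicate 5, which is outside this contrast and adds to the shared spread, the value was the same, -1.03 ± 0.16, and passed (adjusted p = 0.00746). Over all alternatives the adjusted p ran from 0.000835 to 0.333. In HIRA KO livers the change with time was -0.68 ± 0.27 (adjusted p = 0.461), and -0.43 ± 0.16 (adjusted p = 0.342) without replicate 5. The guide effect on Itih5 at 6 months exceeded that at 3 weeks by 0.35 ± 0.39 on the log2 scale, a difference close to its own error, or by 0.60 ± 0.22 without replicate 5. Both values are descriptions, since they are built from the contrasts that chose the gene, and 0 of 22703 genes passed for this difference in edgeR without replicate 5, where 1734 had an unadjusted p under 0.05.

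The other 5 members were lower in HIRA KO livers at both times, and none passed the test. At 3 weeks 0 of 5 passed in edgeR, beside 0.197% of all genes, and 0 passed under every alternative run, DESeq2 and limma-voom included, while 2 of the 5 had an unadjusted p under 0.05, as did 8.87% of all genes. At 6 months 0 of 5 passed, beside 1.31% of all genes and again under every alternative, and 3 had an unadjusted p under 0.05, as did 15.5% of all genes. The median log2 fold change of the 5 was -0.29 at 3 weeks and -0.33 at 6 months, where the median over all genes tested was -0.01 and 0.03. Without control replicate 2 at 3 weeks, the median of the 5 at 3 weeks was -0.12, and without the library labelled HIRA KO 6 months replicate 5 that at 6 months was -0.32.

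Itih3, a heavy chain gene, had the lowest log2 fold change at 3 weeks. The controls held 30818, 69363, 36712, 34940 and 28652 counts, and the HIRA KO libraries held 27773, 25308, 21581, 22339 and 24160. In CPM the groups did not overlap, since all 5 HIRA KO libraries (978 to 1280) lay below the lowest control (1330), a separation shown by 1.24% of genes tested with the HIRA KO group lower. Control replicate 2 stood apart at 3460 CPM, and the next highest control was at 1700 CPM. The log2 fold change was -0.77 ± 0.23 (adjusted p = 0.226), and without control replicate 2 it was -0.45 ± 0.19 (adjusted p = 0.629). At 6 months the controls ran from 1170 to 2460 CPM and the HIRA KO livers from 1060 to 1510, and 3 of the 5 HIRA KO libraries lay below all controls. At that time the fit gave -0.55 ± 0.23 on the log2 scale (adjusted p = 0.251).

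Itih4, the acute phase member, showed the same high control libraries. At 3 weeks the controls held 63906, 169263, 100790, 76376 and 70334 counts, with control replicate 2 again the highest, and the HIRA KO libraries held 87552, 65061, 63908, 72470 and 80092. The 2 arms overlapped, with a log2 fold change of -0.43 ± 0.24 (adjusted p = 0.668). It was -0.09 ± 0.19 (adjusted p = 0.998) without control replicate 2, so this difference rested on that library. At 6 months the controls held 92387, 154327, 91742, 133679 and 141486 counts and the HIRA KO libraries 97019, 104279, 62766, 74948 and 73880. In CPM, 4 of the 5 HIRA KO libraries lay below the lowest control at 3940 CPM, while HIRA KO replicate 2 was at 4750 CPM. The log2 fold change was -0.58 ± 0.24 (adjusted p = 0.244).

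Itih1, whose heavy chain is found on bikunin with that of Itih2, differed by less but with a smaller error. Its controls ran from 995 to 1280 CPM at 3 weeks and its HIRA KO livers from 864 to 1030, and 4 of the 5 HIRA KO libraries lay below every control. The log2 fold change was -0.29 ± 0.12 (adjusted p = 0.471) at 3 weeks and -0.33 ± 0.12 (adjusted p = 0.176) at 6 months, where the ranges were 769 to 1190 and 733 to 978 CPM. All 5 HIRA KO libraries of each time lay below the median of their controls.

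Ambp, the source of bikunin, ran from 2750 to 4620 CPM in 3-week controls, with control replicate 2 the highest, and from 2420 to 3260 in HIRA KO livers. Its log2 fold change was -0.21 ± 0.15 (adjusted p = 0.762) at 3 weeks and -0.26 ± 0.15 (adjusted p = 0.429) at 6 months. The groups overlapped at both times. Without control replicate 2 the value at 3 weeks was -0.06 ± 0.13.

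Itih2, the neighbour of Itih5 on chromosome 2, stayed closest to 0. It ran from 1220 to 1560 CPM in 3-week controls and from 1190 to 1480 in HIRA KO livers, and from 1180 to 1800 against 1220 to 1580 at 6 months. The log2 fold changes were -0.08 ± 0.11 (adjusted p = 0.927) and -0.04 ± 0.11 (adjusted p = 0.909), and the groups overlapped at both times.

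**Figure D2:**
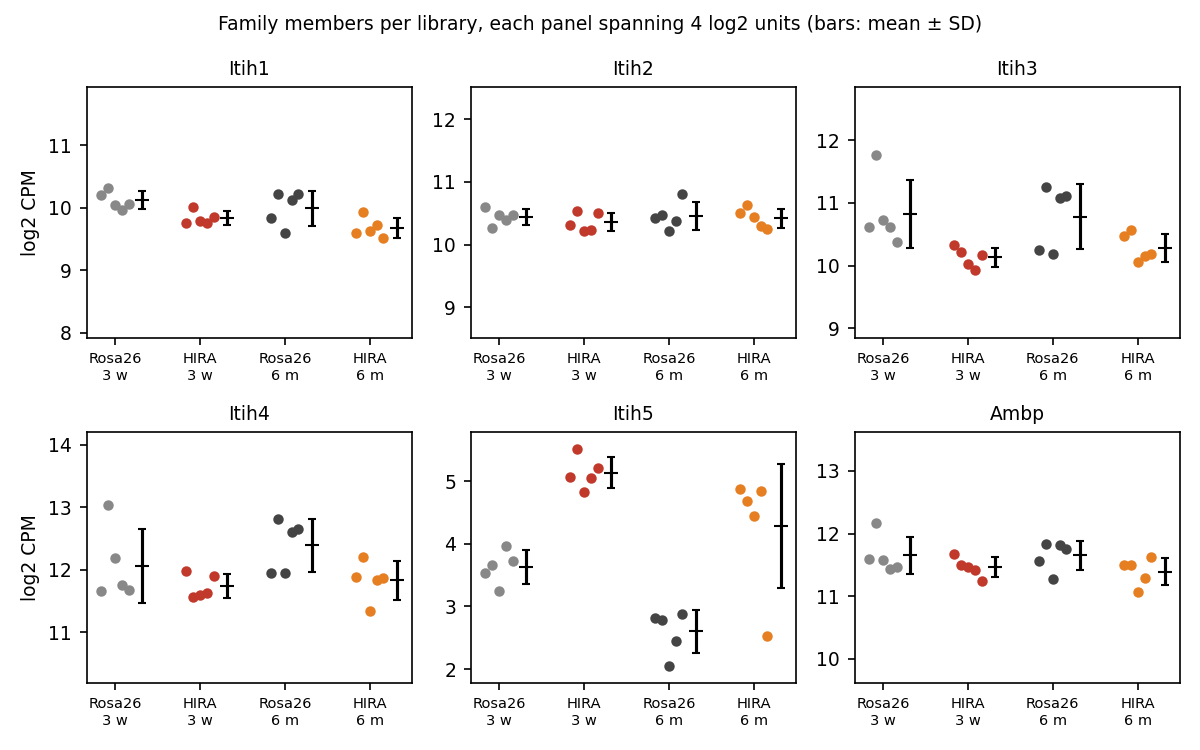
The 6 members in each library on the log2 CPM scale, by guide and time, with bars for the mean ± SD of 5 libraries and 4 log2 units in every panel. Itih5 covers the widest range, the high control libraries of Itih3, Itih4 and Ambp are the same ones, and Itih2 lies flat across the groups.

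No member passed the edgeR test between the times with all libraries in the fit. In controls 0 of 6 members passed in edgeR, Itih5 included, beside 0.324% of all genes, and 1 had an unadjusted p under 0.05, as did 12.8% of all genes. With DESeq2, Itih5 passed in controls (-1.02, adjusted p = 0.0235). The other 5 log2 fold changes of 6 months against 3 weeks ran from -0.11 ± 0.12 for Itih1 to 0.27 ± 0.24 for Itih4. Without control replicate 2 at 3 weeks, Itih4 stood at 0.60 ± 0.20 (adjusted p = 0.205) and Itih3 at 0.26 ± 0.19 (adjusted p = 0.637). In HIRA KO livers 0 of 6 passed, beside 0.0656% of all genes, with 1 unadjusted p under 0.05 (8.95% of all genes), and the other 5 ran from -0.15 ± 0.12 for Itih1 to 0.15 ± 0.23 for Itih3. For the change of the guide effect between 3 weeks and 6 months, 0 of 5 members and 0% of all genes passed in edgeR, DESeq2 and limma-voom, and 0 of the 5 members had an unadjusted p under 0.05, beside 1514 of 22867 genes in edgeR.

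**Figure D3:**
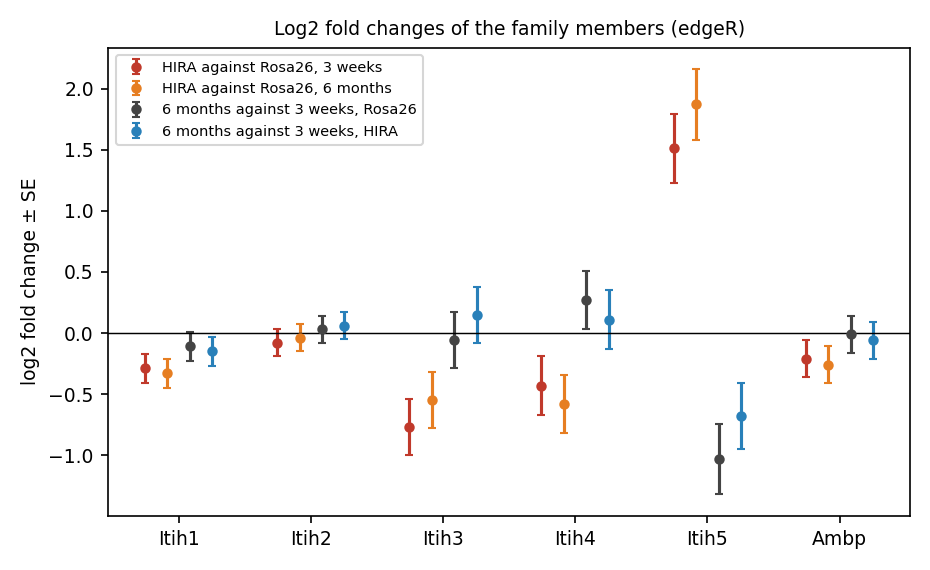
Log2 fold change ± SE of each member in the guide contrasts and the time contrasts, from the edgeR fit of all 20 libraries. Itih5 is the one member above 0 for the guide, at 1.51 and 1.87, and the others lie between -0.77 and -0.04.

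Itih5 made up a larger share of the family's RNA in HIRA KO livers, though a small one in every group. Together the 6 genes took 1.21 ± 0.353% of all counts in 3-week controls and 0.972 ± 0.0612% in HIRA KO livers, and 1.29 ± 0.242% and 1.00 ± 0.107% at 6 months. Itih5 supplied 0.108 ± 0.0363% of the family's counts in 3-week controls and 0.369 ± 0.0642% in HIRA KO livers. At 6 months its share was 0.0474 ± 0.0113% and 0.227 ± 0.1%. Against its neighbour Itih2, per kilobase of exon, Itih5 stood at 0.378 ± 0.0852% and 1.13 ± 0.109% at 3 weeks and at 0.179 ± 0.0274% and 0.667 ± 0.292% at 6 months. Without the library labelled HIRA KO 6 months replicate 5, the 6-month HIRA KO means (n = 4) were 1.02 ± 0.112% for the family, 0.27 ± 0.036% for the share of Itih5 and 0.786 ± 0.143% for Itih5 against Itih2. In replicate 5 itself the last 2 values were 0.0567% and 0.195%, under the highest controls at 0.0664% and 0.212%.

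The high control libraries of Itih3 and Itih4 were also the libraries with the highest acute phase genes. Summed over 20 acute phase genes, such as Hp (haptoglobin), Fga (fibrinogen alpha chain) and Saa1 (serum amyloid A), control replicate 2 at 3 weeks stood at 99500 CPM. Controls 2, 4 and 5 at 6 months stood at 67500, 63300 and 59000 CPM, and the 10 HIRA KO libraries ran from 33600 to 41500 CPM. The other controls ran from 33900 to 48100 CPM at 3 weeks and stood at 35300 and 36800 CPM at 6 months. All of these but the highest lay inside the HIRA KO range. The 5 libraries highest in Itih3 were the 5 highest in this sum, Itih4, Ambp and Itih1 shared 4 of 5 with it, Itih2 shared 1 and Itih5 shared 0. Of the 20 genes, 19 were lower in HIRA KO livers at each time, with median log2 fold changes of -0.69 and -0.52. At 3 weeks, without control replicate 2, 13 were lower and the median was -0.32. At 6 months 1 of the 20 passed, beside 299 of all 22867 genes. With control replicate 2 at 3 weeks, which is not in that contrast, left out of the shared fit, 6 passed, all lower, beside 286 of 22747. The part of the acute phase level in the values of Itih3 and Itih4 was not tested.

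**Figure D4:**
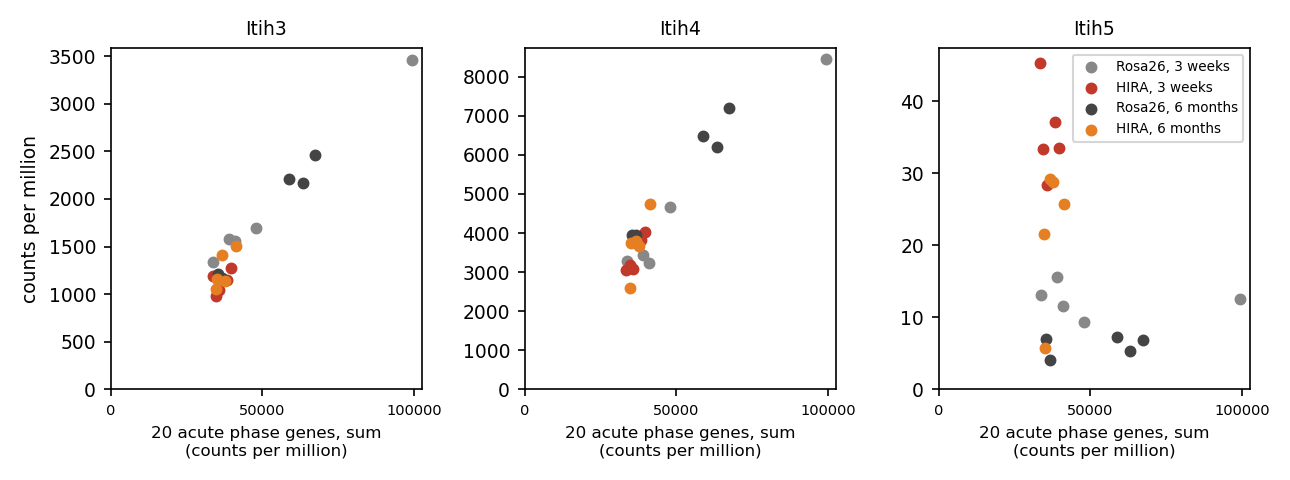
Itih3, Itih4 and Itih5 in each library against the summed level of 20 acute phase genes, both as CPM on linear axes, coloured by guide and time. The control library with a sum of 99500 is the highest in Itih3 and in Itih4, and the 5 libraries highest in Itih5 have sums of at most 39800.

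Of the genes around the family, 64 were tested: those that make, bind or degrade hyaluronan, build chondroitin sulfate, encode other Kunitz-type inhibitors or belong to the acute phase list. At 3 weeks 0 of 64 passed in edgeR and in limma-voom, 3 passed in DESeq2 (Chpf, Hp and Orm3), beside 0.997% of all genes there, and 16 had an unadjusted p under 0.05 in edgeR (8.87% of all genes did). At 6 months, in edgeR, 1 gene rose (0.695% of all genes tested did) and 1 fell (0.612%), and 17 had an unadjusted p under 0.05 (15.5% of all genes). The same 2 genes, Chpf and Orm3, passed in limma-voom, and 8 passed in DESeq2, beside 3.91% of all genes there, the others being Apcs, Crp, Lcn2, Orm1, Orm2 and Saa2, all lower. Chpf, a chondroitin polymerising factor of the chain type that bikunin carries, ran from 2.89 to 4.86 CPM in controls and from 5.95 to 13.6 CPM in HIRA KO livers, without overlap, as did 1.41% of all genes with the HIRA KO group higher at that time. Its log2 fold change was 1.16 ± 0.20 (adjusted p = 0.0138), and it passed with any 1 of the 20 libraries left out. With only the libraries of the contrast in the fit, 0 of 20832 genes passed at 6 months, so neither Chpf nor Orm3 did. Orm3, an orosomucoid gene, fell by 2.62 ± 0.55 on the log2 scale (adjusted p = 0.0238), and since Orm1, Orm2 and Orm3 are near-identical copies the split of reads between them is uncertain. Orm3 no longer passed without control replicate 4 (-2.26, adjusted p = 0.0828), HIRA KO replicate 1 (-2.41, adjusted p = 0.0577) or HIRA KO replicate 3 (-2.46, adjusted p = 0.052) of 6 months. With time, 0 of 64 passed in either arm in edgeR, where 6 had an unadjusted p under 0.05 in each arm (12.8% of all genes in controls and 8.95% in HIRA KO livers), and in DESeq2 2 passed in controls (Stab1 and Ugdh, beside 2.23% of all genes) and 0 in HIRA KO livers. Without control replicate 2 at 3 weeks, 2 acute phase genes passed as higher in 6-month than in 3-week controls, beside 0.229% of all genes, which were Orm2 (2.48 ± 0.42, adjusted p = 0.0149) and Lcn2, lipocalin 2 (3.00 ± 0.60, adjusted p = 0.0442). In the fit of all libraries they stood at 0.58 (adjusted p = 0.784) and 0.83 (adjusted p = 0.73).

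By list, the genes of the remaining groups near the family did not pass in edgeR in any contrast with all libraries in the fit. Both tested hyaluronan synthases, Has1 and Has3, were near the limit of counting, with Has3 at 3 to 10 counts per library at 3 weeks, and Has3 overlaps Chtf8 on the other strand. Of 12 hyaluronan receptors and binding proteins 0 passed at either time, among them the scavenger receptor Stab1 at 0.00 and 0.38 ± 0.13 (adjusted p = 0.142 at 6 months), a gene that overlaps Nt5dc2 on the other strand. Of 4 genes of hyaluronan breakdown 0 passed, and Hyal2, the most abundant, had medians of 57.2 and 57.3 CPM at 3 weeks and 59.5 and 64.8 CPM at 6 months in controls and HIRA KO livers. Of 6 other Kunitz-type inhibitors 0 passed, with a median of 0.07 at 3 weeks and 0.18 at 6 months. Without the library labelled HIRA KO 6 months replicate 5, App (0.56 ± 0.13, adjusted p = 0.0307) and Chst15 (0.65 ± 0.16, adjusted p = 0.0374) passed at 6 months beside Chpf, all higher, and Crp, C-reactive protein (-0.65 ± 0.15, adjusted p = 0.0306), passed beside Orm3 (-2.74 ± 0.60, adjusted p = 0.0253), both lower. In that fit 1.74% of all genes passed.

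Within 250 kb of Itih5, 5 genes were tested besides Itih2, and 0 passed in any contrast in edgeR, with log2 fold changes of -0.58 to 0.13 at 3 weeks and -0.78 to 0.90 at 6 months. Kin, 60.8 kb away, stood at -0.08 ± 0.10 and 0.03 ± 0.10, and Atp5c1, a gene of the ATP synthase, at -0.03 ± 0.08 and -0.13 ± 0.08. On the other side Sfmbt2, 114 kb away, held 99 counts over the 20 libraries, and its values of -0.58 ± 0.66 and -0.78 ± 0.50 carry a wide error. Around the cluster on chromosome 14, 13 further genes were tested and 0 passed in either guide contrast, the nearest to the threshold being Gnl3 at 6 months (0.42 ± 0.11, adjusted p = 0.0648). Around Ambp, 1 of 8 passed at 6 months, beside 1.31% of all genes, which was Orm3. Its call was lost when control replicate 4, HIRA KO replicate 1 or HIRA KO replicate 3 of 6 months was left out. It was also lost with only the libraries of the contrast in the fit.

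**Figure D5:**
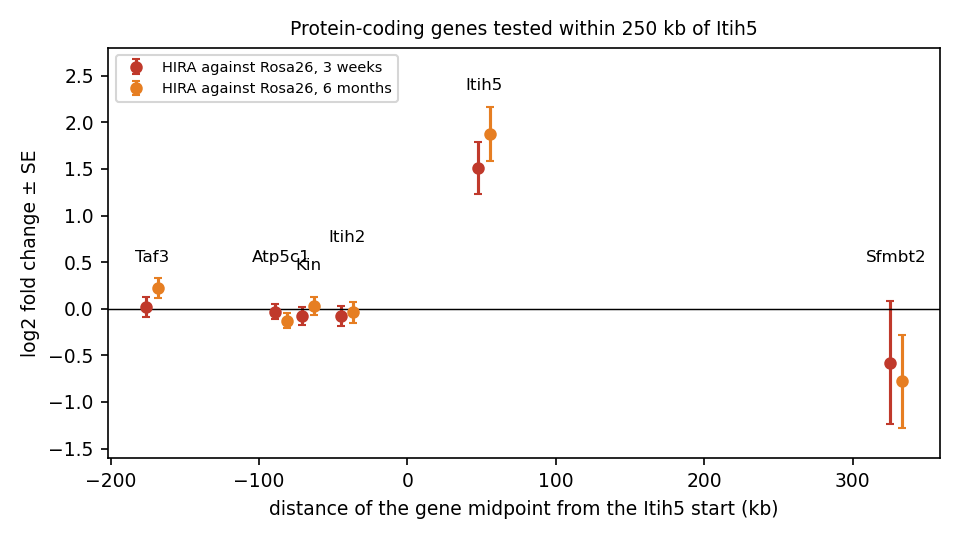
Log2 fold change ± SE at 3 weeks and 6 months of the protein-coding genes tested within 250 kb of Itih5, placed by the distance of the gene's midpoint from the Itih5 start in kb. Itih5 stands at 1.51 and 1.87, and the 5 other genes, Itih2 among them, lie between -0.78 and 0.22.

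Across the 20 libraries the genes whose log2 CPM most resembled that of Itih5, among 12903 genes with a mean of at least 1 CPM, were Cd276 (Pearson r = 0.91), Cdhr2 (0.89), Pgpep1l (0.88), Pou6f1 (0.88) and Tgfa (0.87). These libraries share guide, time and depth, and r is given as a description over groups that differ in level. Cd276, an immune checkpoint ligand, ran from 3.24 to 4.26 CPM in 3-week controls and from 5.81 to 10.3 in HIRA KO livers, and from 1.63 to 4.19 against 2.90 to 7.04 at 6 months. Cdhr2, a cadherin of microvilli, went from 1 to 8 counts per control library to 45 to 94 in 3-week HIRA KO livers. In the library labelled HIRA KO 6 months replicate 5 it had 0.0508 CPM, where the other 4 libraries of the group had 3.19 to 8.96, so that library was low in Itih5 and in Cdhr2 alike. The least like of the named genes were Pcbd1 (r = -0.90), Pebp1 (-0.86) and Tmem250-ps (-0.86), with 1 unnamed gene model between the first and the second.

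Within groups the likeness rested on that library. With each group's mean taken away the most like were Slc22a26 (0.91), Fmo2 (0.91), Plcd3 (0.90), Cdhr2 (0.90) and Cyp2b13 (0.89). Cyp2b13, a cytochrome P450 known for its higher level in female mouse liver, stood at 1.58 CPM in the library labelled HIRA KO 6 months replicate 5 and at 131 to 281 CPM in the other 4 libraries of the group. Without the library the most like within groups were Smg6 (0.83), Tmem38a (0.82), Prr12 (0.80), Rexo1 (0.78) and Arhgap24 (0.77), and none of the 5 genes named before was among them. Over all 20 libraries the r of Itih5 with the other members ran from -0.47 for Itih4 to 0.02 for Itih2. Within groups it ran from -0.12 for Ambp to 0.47 for Itih2, and without that library from 0.16 for Itih4 to 0.47 for Itih2.

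Other values that moved with the groups stand beside the Itih5 result, and their part in it was not tested. Of 12 stellate cell and fibroblast markers 12 were higher in HIRA KO livers at 6 months and 0 passed, with a summed level of 239 to 418 CPM in controls and 247 to 984 in HIRA KO livers. Without the library labelled HIRA KO 6 months replicate 5 the lowest HIRA KO sum was 401 CPM. The median log2 fold change was then 0.61 in place of 0.48, and 0 passed. Within that HIRA KO group replicate 3 had the highest sum, 984 CPM, and an Itih5 level of 21.6 CPM, the lowest of replicates 1 to 4, and replicate 5 had the lowest sum, 247 CPM, and the lowest Itih5. At 3 weeks, where Itih5 separated the groups, 9 of the 12 were higher and 0 passed, and these sums overlapped, at 296 to 476 CPM in controls and 309 to 432 in HIRA KO livers. No marker of the list was below the count filter. Of 10 endothelial markers 9 were higher in HIRA KO livers at 3 weeks and 10 at 6 months and 0 passed, with median log2 fold changes of 0.14 and 0.27. The endothelial sums were 320 to 419 and 343 to 395 CPM at 3 weeks and 208 to 371 and 248 to 407 at 6 months. Of 9 lymphocyte markers, such as Cd3e of T cells and Cd79a of B cells, 9 were higher in HIRA KO livers at each time and 0 passed, with median log2 fold changes of 0.60 at 3 weeks and 0.48 at 6 months. Their sums ran from 7.84 to 15.1 CPM in controls and from 13.3 to 21.1 in HIRA KO livers at 3 weeks, and from 8.85 to 31.5 and from 8.08 to 41.7 at 6 months, overlapping at both times. Replicate 5 of the 6-month HIRA KO group had the lowest sum, 8.08 CPM. Without that library the 6-month medians were 0.35 for the endothelial and 0.70 for the lymphocyte markers, and 0 passed in either list. Of 10 hepatocyte markers 5 were higher at 3 weeks, where 0 passed, and 7 at 6 months, where 2 passed in opposite directions, beside 1.31% of all genes. These were Cyp3a11, a cytochrome P450 with near-identical copies (1.02 ± 0.17, adjusted p = 0.0138), and Asgr1, a subunit of the asialoglycoprotein receptor (-0.34 ± 0.08, adjusted p = 0.047). With only the libraries of the contrast in the fit neither passed, since 0 of 20832 genes did. The hepatocyte sums ran from 97900 to 147000 CPM in controls and from 128000 to 167000 in HIRA KO livers at 3 weeks, and from 85300 to 125000 (median 105000) and from 107000 to 146000 (median 134000) at 6 months, overlapping at both times. Without the library labelled HIRA KO 6 months replicate 5, 5 of the 10 hepatocyte markers were lower at 6 months. Their median log2 fold change was then 0.00 in place of 0.14, and Cyp3a11 and Asgr1 still passed. Of the 8 cholangiocyte, 10 Kupffer cell and macrophage and 5 mesothelial markers 0 passed at either time, with medians of -0.01, 0.03 and -0.37 at 3 weeks and 0.18, -0.16 and 0.44 at 6 months. Without the library labelled HIRA KO 6 months replicate 5, these 6-month medians were 0.33, 0.07 and 0.65, and 0 passed. The Kupffer cell and macrophage sums at 6 months ran from 277 to 1970 CPM (median 329) in controls, with replicate 3 the highest. In HIRA KO livers they ran from 174 to 1180 CPM (median 534). Dbp, a clock output gene whose level depends on the hour of collection, had a log2 CPM of 0.69 to 1.86 in 3-week controls and 3.19 to 6.70 in 3-week HIRA KO livers. At 6 months Dbp overlapped, at 4.19 to 6.57 in controls and 1.94 to 6.85 in HIRA KO livers. Between the times the Dbp values of the controls did not overlap, and these groups also differed in age. The part of either in the lower Itih5 level of 6-month controls was not tested.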

How the data were processed

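RNA was extracted from whole liver and sequenced from directional poly(A) libraries. Per the labels, the submitters' processing notes name STAR, HTSeq, Cufflinks and mm10 (the same assembly as GRCm38), while the methods of the study name HOMER for counting. The strand setting of the counting is not given in the sources used here. The authors deposited whole-number counts per gene and FPKM values, and the FPKM (18022 genes with a value in every library) served levels and an alternative only. Groups and replicate numbers were taken from the titles. The labels number the replicates but do not state that each is its own mouse, and if some are not, the p-values measure a spread that may be technical.

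The members and lists were chosen with earlier results of these data known. Counts were tested with the quasi-likelihood test of edgeR 4.0.16 (R 4.3.3, TMM, Benjamini-Hochberg over all genes tested) in 1 fit of 20 libraries with a mean per group. Genes with at least 10 counts in total were kept, which left 22867 of 55421, with 22854 at no count and 9700 at 1 to 9. Passed means an adjusted p under 0.05, and called adds an absolute log2 fold change above 1, the thresholds of the study. All adjusted p-values are from edgeR unless another tool is named. Log2 CPM used a prior count of 2. Levels between genes are per kilobase of the exon union in GENCODE M21, which matched 98.5% of the identifiers. Named genes were the members, list genes that passed or were abundant examples, neighbours within 250 kb and the genes most and least like Itih5. Alternatives were another scaling, filter, tool or set of libraries, a replicate block and FPKM with limma 3.58.1, and the other tool was DESeq2 1.42.0. Tables and plots were made in Python 3.11.15 (pandas 2.3.3, numpy 2.4.6, matplotlib 3.10.9). The fit was tested on simulated data.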

Additional observations from a re-analysis of the deposited data

Results flagged for a closer look

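In 3 of 24 sets, each of them 1 member in 1 group of 5 libraries, the highest or lowest library stood apart by Dixon's ratio, the gap to the nearest library over the range, with a limit of 0.71 for 5 libraries. Chance flags about 1 set in 20. Control replicate 2 at 3 weeks was the highest of its group in Itih3 (ratio 0.747) and in Ambp (ratio 0.777), and it was the library with the highest summed acute phase genes. The library labelled HIRA KO 6 months replicate 5 was the lowest of its group in Itih5 (ratio 0.815), at 5.69 CPM beside 21.6 to 29.2 CPM in the other 4, and it was the library with 9 Xist counts.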

How the results depend on the processing

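Itih5 was higher in HIRA KO livers under all 30 alternatives at each time. With log2(FPKM + 1) the log2 fold change was 1.07 at 3 weeks and 0.99 at 6 months. Leaving out 1 library at a time it ran from 1.41 to 1.61 at 3 weeks and from 1.74 to 2.11 at 6 months. The call that chose it was lost under 11 of 30 alternatives at 3 weeks, 9 of which left out a library, and under 2 of 30 at 6 months. In controls, 6 months against 3 weeks, 1 member (Itih5) passed in place of 0 with DESeq2 (-1.02, adjusted p = 0.0235), with only the libraries of the contrast (-1.03, adjusted p = 0.0256), without the library labelled HIRA KO 6 months replicate 5 (-1.03, adjusted p = 0.00746) and with the replicate block and without that library (-1.04, adjusted p = 0.000835), the last added after seeing the data. Leaving out 1 library at a time the count there was 0 to 1, and it was 0 in the other contrasts. Itih5 was not counted in the guide contrasts or in their change with time, since they chose it.

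Values near 0 changed sign under some settings. Itih2 at 6 months was 0.05 with the block and without library 5. Ambp in controls over time was 0.00 to 0.01 with DESeq2 size factors, the 1 CPM filter, DESeq2, limma-voom, the block without library 5 and FPKM. The change of the guide effect was -0.08 for Itih5 with log2(FPKM + 1) and 0.02 for Itih1 with the block and without library 5. Leaving out 1 library at a time, values in controls over time ran from -0.07 to 0.09 for Itih2, -0.19 to 0.26 for Itih3 and -0.07 to 0.15 for Ambp, and in HIRA KO livers over time from -0.12 to 0.03 for Ambp. The change of the guide effect ran from -0.13 to 0.01 for Itih1, -0.02 to 0.13 for Itih2, -0.10 to 0.34 for Itih3 and -0.20 to 0.03 for Ambp, and Itih2 at 6 months from -0.10 to 0.06. The cause was not tested. The interaction has no value with only the libraries of a contrast.

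The number of genes passing, 45, 299, 74 and 15 in the order guide at 3 weeks, guide at 6 months, controls over time and HIRA KO over time, was 228, 895, 511 and 141 with DESeq2, 85, 534, 164 and 15 with the 1 CPM filter and 23, 297, 58 and 7 with limma-voom. With only the libraries of the contrast it was 149, 0 (2629 genes at an unadjusted p under 0.05), 147 and 9. Same-numbered libraries correlated in their deviations at -0.309 to 0.335 over 12903 genes, and 1 or 2 of 5 libraries correlated best with their own number. Pairing by number was therefore not assumed, though these values cannot exclude a weak shared batch. The replicate block gave 54, 324, 151 and 37 genes. With it 0 members passed in every contrast, Itih5 not being counted in the guide contrasts or in their change with time. Without the library labelled HIRA KO 6 months replicate 5 the counts were 103, 395, 213 and 28, and without control replicate 2 at 3 weeks they were 6, 286, 52 and 20. Itih5 held 94 to 163 counts in 6-month controls, which limits its precision there.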
